A study of Homo sapiens with 6 samples.

Results

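The collagen prolyl and lysyl hydroxylases are the enzymes that hydroxylate proline and lysine residues of newly made collagen chains, and the 10 genes of this group, P3H1, P3H2, P3H3, P3H4, P4HA1, P4HA2, P4HA3, PLOD1, PLOD2 and PLOD3, were chosen by name. All 10 were measured, by 25 of the 39341 probe sets of the array that carry exactly 1 gene symbol among these names, and each gene was represented by its probe set of highest mean among the 15277 genes of the table. The values came from the cell line HFL-1, fibroblasts of human fetal lung, transiently infected in the presence of polybrene with lentivirus carrying full-length HYAL1, a hyaluronidase, or with the control vector CON335. Each group had 3 samples, 1 on each PrimeView array, a platform labelled from the 3' end of transcripts. Whole cultures were profiled, and the time of harvest was not given in the sources used here. In whole cultures, fewer cells of a type and less RNA per cell cannot be told apart. The titles call the samples biological replicates, but how they were raised was not given, so p-values measure the spread between these samples.

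HYAL1, the gene that the virus carries, ran against the labels. It had log2 values of 4.81, 4.82 and 4.67 in the arrays labelled HYAL1 overexpression, against 7.48, 7.49 and 7.46 in the arrays labelled control. The difference was -2.71 (standard error 0.0455, adjusted p = 7.78e-07 from limma), and HYAL1 was dimmer than the array's background median (9 background probe sets, 6.69 to 6.90) in the arrays labelled HYAL1 overexpression. Single background probe sets ran from 4.46 to 11.27, so this median is a reference level and no limit of detection. In the study's own list of changed genes the same 3 arrays stand under NC, its name for the empty vector, and the other 3 under OE. Directions are given by the sample labels, HYAL1-labelled and control-labelled, and a gene lower in the HYAL1-labelled arrays was lower where HYAL1 itself was lower. Array medians ran from 6.97 to 7.01, and arrays correlated over all probe sets at r = 0.998 to 0.999, where probe sets are no independent replicates. The fibroblast identity of the cells was checked with 14 fibroblast markers, all of which lay above the background median on all 6 arrays. So did 3 of 9 measured epithelial, 2 of 8 endothelial and 2 of 6 leukocyte markers. Of smooth muscle and pericyte markers 5 of 9 did, so this check does not tell fibroblasts from those cells.

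Collagen chains are hydroxylated in the endoplasmic reticulum by dioxygenases that need iron, ascorbate, oxygen and 2-oxoglutarate. The P4HA genes encode the catalytic alpha subunits of prolyl 4-hydroxylase, whose beta subunit is the disulfide isomerase P4HB, and the 4-hydroxyproline they make keeps the collagen triple helix stable at body temperature. The P3H enzymes modify a few prolines next to it, and the PLOD enzymes hydroxylate lysines that then carry sugars or form the cross-links of the finished fibre, which lung fibroblasts lay down in excess in fibrosis. Several of these genes, P4HA1 and PLOD2 among them, are known to be induced by hypoxia-inducible factor.

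To set sequence beside the values, the window from 250 bases before to 50 bases after the transcription start was read for 8 of the 10 genes, in 9 windows, from RefSeq (GRCh38.p14). Shown are the windows of the gene with the largest difference in each family (P3H2, P4HA1 and PLOD2) and of PLOD3, whose groups overlapped, 5' to 3' on the gene's strand. Capitals mark the core of the hypoxia response element, ACGTG or GCGTG on either strand. P3H2 has a pair of listed starts, at chr3:190122229-190122528 and chr3:190120848-190121147 (both minus strand). The other windows are chr10:73096817-73097116 for P4HA1, chr3:146161135-146161434 for PLOD2 and chr7:101217532-101217831 for PLOD3 (all minus strand).
P3H2, upstream window: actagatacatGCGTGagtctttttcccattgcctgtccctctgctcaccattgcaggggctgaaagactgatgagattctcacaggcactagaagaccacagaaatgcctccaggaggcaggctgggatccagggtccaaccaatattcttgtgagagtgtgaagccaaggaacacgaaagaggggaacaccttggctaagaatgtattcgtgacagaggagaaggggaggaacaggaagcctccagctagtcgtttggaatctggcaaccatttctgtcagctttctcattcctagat
P3H2, downstream window: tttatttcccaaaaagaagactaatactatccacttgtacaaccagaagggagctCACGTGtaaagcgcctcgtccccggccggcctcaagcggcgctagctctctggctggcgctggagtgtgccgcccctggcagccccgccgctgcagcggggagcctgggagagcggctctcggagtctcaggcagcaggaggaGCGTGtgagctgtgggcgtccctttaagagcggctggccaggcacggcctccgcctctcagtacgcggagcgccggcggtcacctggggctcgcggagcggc
P4HA1: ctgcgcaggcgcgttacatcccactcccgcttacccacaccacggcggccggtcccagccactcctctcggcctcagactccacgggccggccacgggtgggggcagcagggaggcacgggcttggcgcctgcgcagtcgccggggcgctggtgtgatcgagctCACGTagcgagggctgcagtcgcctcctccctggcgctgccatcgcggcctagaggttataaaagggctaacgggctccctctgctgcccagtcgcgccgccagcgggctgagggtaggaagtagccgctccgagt
PLOD2: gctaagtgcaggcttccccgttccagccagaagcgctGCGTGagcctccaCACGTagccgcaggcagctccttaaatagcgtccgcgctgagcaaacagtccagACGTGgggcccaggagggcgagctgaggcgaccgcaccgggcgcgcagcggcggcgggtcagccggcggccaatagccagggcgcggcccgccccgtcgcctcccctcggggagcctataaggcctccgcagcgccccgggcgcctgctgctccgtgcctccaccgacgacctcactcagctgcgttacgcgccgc
PLOD3: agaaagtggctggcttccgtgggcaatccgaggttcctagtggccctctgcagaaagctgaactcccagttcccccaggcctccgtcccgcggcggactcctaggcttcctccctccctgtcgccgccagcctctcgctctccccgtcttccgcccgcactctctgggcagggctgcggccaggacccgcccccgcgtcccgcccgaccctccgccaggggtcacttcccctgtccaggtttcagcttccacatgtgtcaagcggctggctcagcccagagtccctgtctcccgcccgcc
The core was found in 5 of the 8 genes with a window, namely P3H1, P3H2 (in both windows), P4HA1, PLOD1 and PLOD2, and in 48.4% of all 35116 promoter windows of the same length. The first count is by gene and the share by window, so they are not alike in unit. PLOD2 held 3 matches, as did the downstream window of P3H2, where 2 of the 3 overlap in the palindrome CACGTG, a motif held by 7.26% of all windows. The windows of P3H3, P4HA2 and PLOD3 held none of these letters. A match describes the sequence and is not evidence that a factor binds there.

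P3H2 was the hydroxylase gene that passed the test between the groups. Of the 10 genes, 1 was lower in the HYAL1-labelled arrays and 0 were higher at an adjusted p under 0.05 from limma, where 1.21% of all genes were called lower and 0.445% higher (1.66% in either direction). By sign alone 9 of the 10 were lower, beside 42.7% of all genes. At an unadjusted p under 0.05, 7 of the 10 were lower and 0 higher, beside 7.72% and 9.69% of all genes. The groups did not overlap in 7 genes that were lower and in 1 that was higher, beside 10.3% and 14.1% of all genes. The median difference of the 10 genes was -0.13 on the log2 scale, where that of all 15277 genes was 0.01. When the prior variance was given a trend over mean level, 6 of the 10 were called lower (P3H1, P3H2, P3H4, P4HA1, PLOD1 and PLOD2) and 0 higher, beside 3.89% and 2.81% of all genes.

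**Figure D1:**
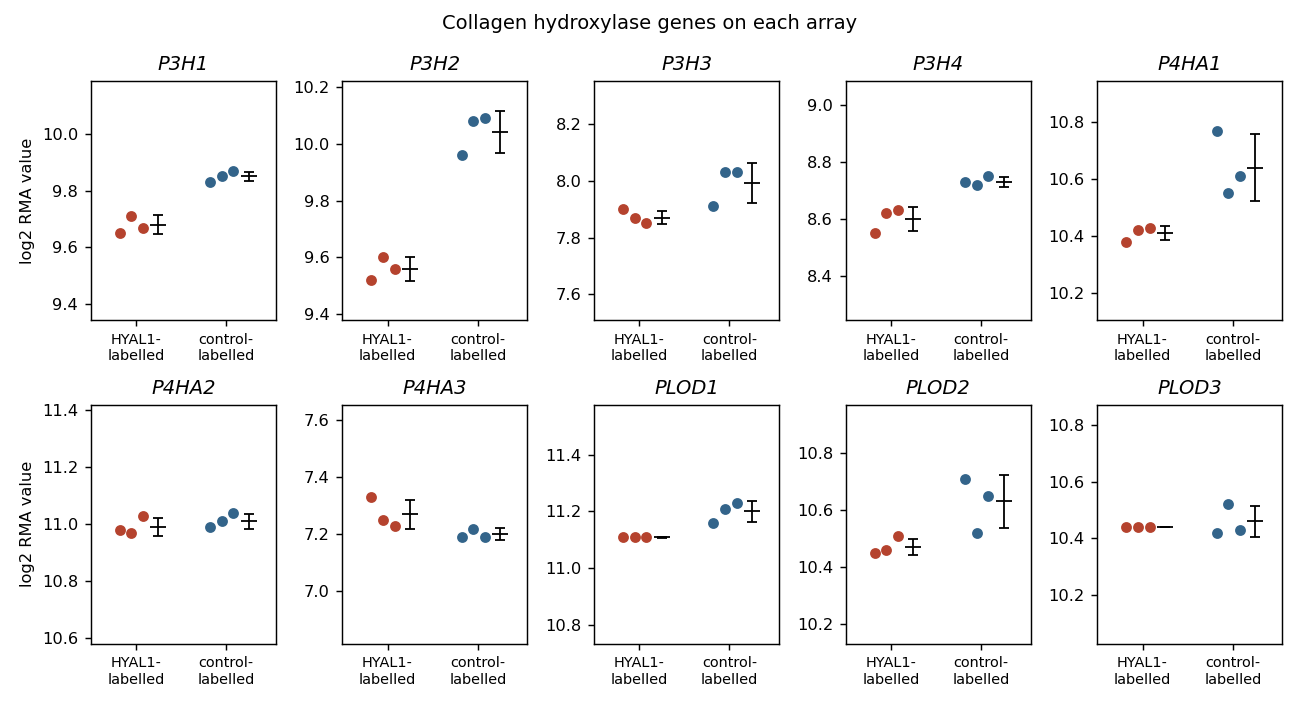
Each panel plots the log2 RMA value of 1 collagen hydroxylase gene on the 3 HYAL1-labelled arrays (left) and the 3 control-labelled arrays (right), with mean and SD as a bar, and all panels span the same height in log2 units. P3H2 shows the widest gap, 9.56 against 10.04, while the points of P4HA2 and PLOD3 overlap.

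The prolyl 3-hydroxylase family stood lower in the HYAL1-labelled arrays in all 4 genes and in all 11 of their probe sets (44.3% of all probe sets were below 0), with no overlap between the groups in any of the 11, beside 10.7% of all probe sets. These sets read 4 genes on the same arrays and are no independent replicates. P3H2, which 3-hydroxylates basement membrane collagen, had log2 values of 9.52, 9.60 and 9.56 in the HYAL1-labelled arrays, against 9.96, 10.08 and 10.09 in the control-labelled arrays. Every HYAL1-labelled array was lower, and the gap between the nearest arrays was 0.35. The difference of -0.48 (95% interval -0.59 to -0.37, standard error 0.0457, adjusted p = 0.00844 from limma) is 1.39-fold, or 28.3% less signal, and ranked 11 by size and 22 by p among all 15277 genes. A dimmer probe set of P3H2, below the background median on all 6 arrays, read 6.30, 6.36 and 6.39 in the HYAL1-labelled arrays, against 6.45, 6.54 and 6.53 in the control-labelled arrays. Its difference was -0.16 (adjusted p = 0.121 from limma among all probe sets), and the size from a set below that median is uncertain. The mean of both sets, which includes it, gave -0.32 (adjusted p = 0.0164). P3H2 missed the threshold without control-labelled replicate 3 (adjusted p = 0.0561 from limma), with the replicate block (0.0527) and with the unmoderated test (0.0639).

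P3H1, the enzyme that works with CRTAP and the isomerase PPIB on fibrillar collagen and is mutated in recessive brittle bone disease, came close to the threshold. It read 9.65, 9.71 and 9.67 in the HYAL1-labelled arrays, against 9.83, 9.85 and 9.87 in the control-labelled arrays. These do not overlap, and the difference was -0.17 (standard error 0.032, adjusted p = 0.052 from limma). All 3 of its probe sets ran the same way, by -0.17 to -0.13. P3H1 passed in 8 of 16 alternative fits, among them the mean of its probe sets (adjusted p = 0.0443), median centring (0.0464) and the prior variance with trend (0.000994).

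P3H3, which in the mouse acts with P3H4 and PLOD1 in lysine hydroxylation, read 7.90, 7.87 and 7.85 in the HYAL1-labelled arrays, against 7.91, 8.03 and 8.03 in the control-labelled arrays. The gap between the nearest arrays was 0.01, and the difference of -0.12 did not pass (adjusted p = 0.221 from limma). Its other 2 probe sets gave -0.15 and -0.22. P3H4, a family member without enzyme activity, read 8.55, 8.62 and 8.63 in the HYAL1-labelled arrays, against 8.73, 8.72 and 8.75 in the control-labelled arrays. That difference was -0.13 (standard error 0.034, adjusted p = 0.113 from limma), and its other 2 probe sets both gave -0.17. The representative sets of P3H1 and P3H4 have names ending in _x_at, a suffix the maker uses for sets whose probes may also match other transcripts, but other sets of both genes without that suffix ran the same way.

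None of the alpha subunits of prolyl 4-hydroxylase passed the test. P4HA1, the main alpha subunit of most cells, read 10.38, 10.42 and 10.43 in the HYAL1-labelled arrays, against 10.77, 10.55 and 10.61 in the control-labelled arrays. All 3 HYAL1-labelled arrays were lower, but the SD was 0.0249 in the HYAL1-labelled arrays, against 0.118 in the control-labelled arrays, with control-labelled replicate 1 the highest. The difference of -0.23 (95% interval -0.37 to -0.09, standard error 0.0587) did not pass (adjusted p = 0.115 from limma), and it was -0.17 without control-labelled replicate 1 (adjusted p = 0.135). P4HA1 passed in 3 of the 16 alternative fits, those with a trend in the prior variance (adjusted p = 0.00309, and 0.00941 when robust) and the one that dropped the 30% of genes with the lowest means (0.0456). P4HA2, the alternative alpha subunit, read 10.98, 10.97 and 11.03 in the HYAL1-labelled arrays, against 10.99, 11.01 and 11.04 in the control-labelled arrays. Its groups overlapped, and the difference was -0.02 with a 95% interval of -0.10 to 0.05 (adjusted p = 0.765 from limma). P4HA3, another alpha subunit, ran the other way, with 7.33, 7.25 and 7.23 in the HYAL1-labelled arrays, against 7.19, 7.22 and 7.19 in the control-labelled arrays. It was the only gene of the 10 with a positive difference, 0.07 (95% interval -0.01 to 0.16, adjusted p = 0.359 from limma, and 0.04 without HYAL1-labelled replicate 1), and its levels lay just above the background medians. Each of these 3 genes was read by 1 probe set.

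**Figure D2:**
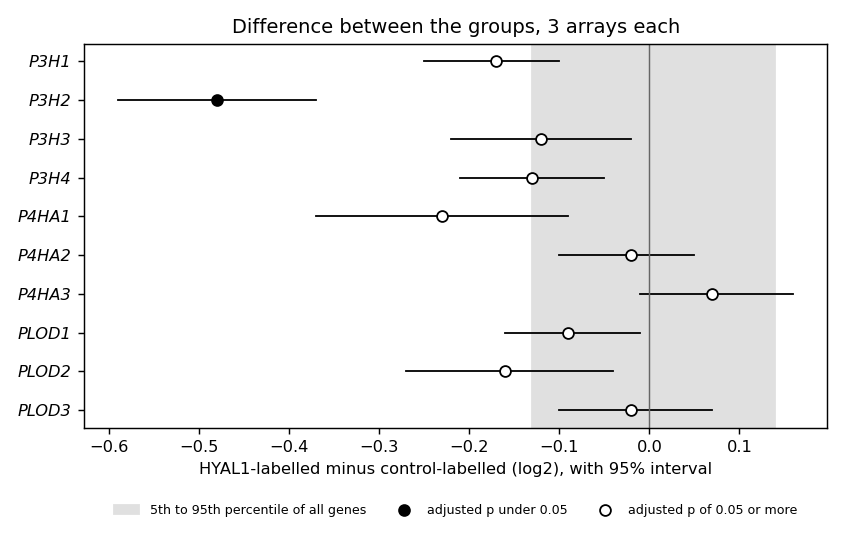
Points give the difference in log2 value, HYAL1-labelled minus control-labelled, of each gene from limma with its 95% interval (3 arrays per group); the shaded band holds the central 9 in 10 of all genes, and a filled point marks an adjusted p under 0.05. P3H2 at -0.48 is the filled point, and the intervals of P4HA2, P4HA3 and PLOD3 include 0.

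None of the lysyl hydroxylase genes passed the test by the set of highest mean, and the groups did not overlap in PLOD1 and PLOD2. PLOD2, which hydroxylates lysines in the ends of the collagen chains and so sets the type of cross-link, read 10.45, 10.46 and 10.51 in the HYAL1-labelled arrays, against 10.71, 10.52 and 10.65 in the control-labelled arrays. The nearest arrays were 0.02 apart, and the difference was -0.16 (standard error 0.0506, adjusted p = 0.183 from limma). All 4 probe sets of PLOD2 gave differences of -0.22 to -0.14, and the groups did not overlap in 3 of them. A dimmer one read 10.08, 10.17 and 10.16 in the HYAL1-labelled arrays, against 10.35, 10.36 and 10.37 in the control-labelled arrays. This set had a difference of -0.22 and passed when limma was run over every probe set (adjusted p = 0.0403), where 1.08% were called lower and 0.346% higher. It and the brighter set of P3H2 were the 2 hydroxylase probe sets of 25 that passed, and both were lower.

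PLOD1, which hydroxylates lysines of the triple helix and is mutated in a form of Ehlers-Danlos syndrome with scoliosis, read 11.11 in each of the HYAL1-labelled arrays, against 11.16, 11.21 and 11.23 in the control-labelled arrays. The difference was -0.09 (standard error 0.0322, adjusted p = 0.235 from limma), and the other probe set of PLOD1 gave -0.17 (adjusted p = 0.062 among all probe sets). PLOD3, which also adds the sugars to hydroxylysine, read 10.44 in each of the HYAL1-labelled arrays, against 10.42, 10.52 and 10.43 in the control-labelled arrays. The difference was -0.02 (95% interval -0.10 to 0.07, adjusted p = 0.846 from limma). Its 5 probe sets ran from -0.02 to 0.04, 2 lower and 3 higher, and none had separate groups. The sign of the PLOD3 difference turned with the mean of its probe sets (0.01).

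**Figure D3:**
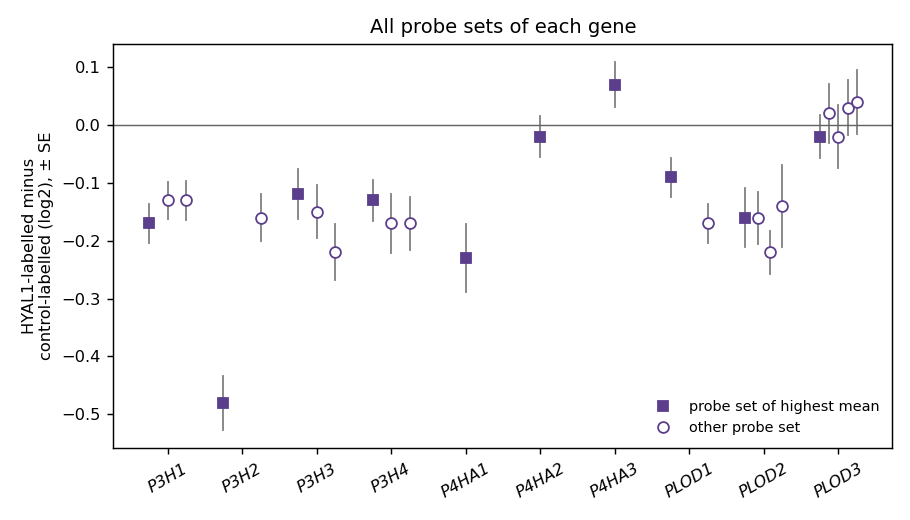
Each point is the difference in log2 value, HYAL1-labelled minus control-labelled, of 1 of the 25 probe sets with its standard error, and squares mark the set of highest mean of a gene. All 11 sets of the P3H genes lie below 0, the lesser difference of P3H2 (-0.16) comes from a set below the background median on all 6 arrays, and those of PLOD3 straddle 0.

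Whether the hydroxylases moved by the same amount as their partners was asked of 12 log2 ratios taken within each array, where a change in a ratio shows unequal change and its level has no meaning between probe sets. The groups did not overlap in 6 of the 12, each with p = 0.10 in the exact permutation test (two-sided), the smallest that 3 arrays against 3 allow, and 0.20 after Benjamini-Hochberg adjustment. Lower in the HYAL1-labelled arrays were P4HA1 to P4HB, with a difference of -0.25 on the log2 scale, P4HA1 to P4HA2 (-0.21), P3H1 to CRTAP (-0.19) and P3H2 to the collagen IV chain COL4A1 (-0.33). P3H1 to P3H2 was higher there by 0.31, which was 0.17 with probe sets averaged, and PLOD3 to PLOD1 by 0.07, which was 0.14 with probe sets averaged. For P4HA1 to the collagen I chain COL1A1 the difference was 0.04 (exact permutation p = 0.70) and for PLOD2 to COL1A1 0.12 (exact permutation p = 0.30), with overlapping groups. Without control-labelled replicate 1 these were 0.13 and 0.18, with groups that did not overlap, and 9 of the 12 ratios did not overlap. With fewer arrays groups separate more readily, so that count is not comparable with the 6 above. Several ratios also share a gene and are not separate results. P4HA1 to COL1A1 turned to -0.02 without control-labelled replicate 2. PLOD2 to FKBP10, the isomerase that works with it, differed by -0.03 (exact permutation p = 0.60), and PLOD1 to PLOD2 by 0.07 (exact permutation p = 0.50). P4HA2 to P4HB and P3H3 to PLOD1 also overlapped. With probe sets averaged P4HA2 to P4HB was -0.10 (exact permutation p = 0.10), and 7 of the 12 ratios did not overlap. After renewed quantile normalization P3H3 to PLOD1 was -0.04 (exact permutation p = 0.10).

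The partner proteins of the hydroxylases in the endoplasmic reticulum held no gene past the threshold. Of 17 measured, limma called 0 higher and 0 lower after adjustment. Unadjusted p-values were under 0.05 for 0 higher and 6 lower (9.69% and 7.72% of all genes), groups did not overlap in 2 higher and 8 lower (14.1% and 10.3%), and the median difference was -0.05. P4HB read 12.70, 12.70 and 12.69 in the HYAL1-labelled arrays, against 12.66, 12.69 and 12.68 in the control-labelled arrays. It differed by 0.02 (adjusted p = 0.734). CRTAP differed by 0.02 (adjusted p = 0.845) and turned to -0.01 without control-labelled replicate 2. The sets used for P4HB and CRTAP also have names ending in _x_at. With probe sets averaged both genes gave 0.07 (adjusted p = 0.203 for P4HB and 0.348 for CRTAP from limma). Values for the other partners were -0.10 for PPIB (adjusted p = 0.192), -0.12 for FKBP10 (0.195), -0.05 for the collagen chaperone SERPINH1 (0.458) and -0.05 for COLGALT1, the galactosyltransferase that acts on hydroxylysine (0.431). With the trend in the prior variance PPIB and FKBP10 passed. The lowest p-values of the list belonged to CREB3L1 (-0.12), FKBP14 (-0.16) and FKBP7 (-0.13), with adjusted p = 0.106, 0.108 and 0.159 from limma, named after their values were seen.

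Among the substrates, 2 of 11 fibrillar collagen chains were lower in the HYAL1-labelled arrays and 0 higher (4 and 0 at an unadjusted p under 0.05), with a median of -0.06. Groups did not overlap in 0 higher and 5 lower chains, beside 14.1% and 10.3% of all genes. The list's median includes COL2A1, COL24A1, COL11A2, COL5A3 and COL27A1, which lay below the background medians on all arrays. For this and the following lists, the shares over all genes were 1.21% lower and 0.445% higher after adjustment, and 7.72% and 9.69% at an unadjusted p under 0.05. COL1A1 read 11.47, 11.48 and 11.50 in the HYAL1-labelled arrays, against 11.72, 11.78 and 11.78 in the control-labelled arrays. The groups lay apart by -0.27 (adjusted p = 0.0152 from limma, standard error 0.0328). The minor fibrillar chain COL11A1 had a difference of -0.32 (adjusted p = 0.0107). The other collagen I chain, COL1A2, differed by -0.09 (adjusted p = 0.189). Of the 4 measured collagen IV chains none passed (0 higher and 2 lower at an unadjusted p under 0.05). Groups did not overlap in 0 higher and 2 lower collagen IV chains, beside 14.1% and 10.3% of all genes. Their median of -0.09 includes COL4A5 (-0.03) and COL4A6 (0.02), and COL4A6 lay below the background medians on all arrays. COL4A1 differed by -0.15 (adjusted p = 0.0713), and was -0.05 with probe sets averaged, and COL4A2 by -0.15 (adjusted p = 0.0565).

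Outside the cell, where procollagen is trimmed and hydroxylysines are oxidised into cross-links, 2 of 11 measured genes were lower in the HYAL1-labelled arrays and 0 higher, with a median of -0.01. These were the lysyl oxidases LOX, at -0.21 (adjusted p = 0.025 from limma, and -0.33 in its set of lowest p), and LOXL2, at -0.22 (adjusted p = 0.0213), which was -0.11 with probe sets averaged (adjusted p = 0.137). Another lysyl oxidase, LOXL1, ran the other way by 0.15 (adjusted p = 0.0729 from limma), as did PCOLCE by 0.12 (0.144). At an unadjusted p under 0.05, 2 genes of this list were higher and 3 lower. Groups did not overlap in 2 higher and 3 lower, beside 14.1% and 10.3% of all genes. The supply of iron, ascorbate and 2-oxoglutarate had 1 of 20 measured genes past the threshold. It was IDH1, the cytosolic isocitrate dehydrogenase that makes 2-oxoglutarate, with a difference of 0.20, higher in HYAL1-labelled arrays (adjusted p = 0.0428). In this supply list 3 genes were higher and 1 lower at an unadjusted p under 0.05. Groups did not overlap in 5 higher and 2 lower, beside 14.1% and 10.3% of all genes, and the median was 0.01. Of 16 other hydroxylases that use 2-oxoglutarate, 1 was higher, PHYH, the peroxisomal phytanoyl-CoA hydroxylase, by 0.24 (adjusted p = 0.0374), and 0 were lower. The 6 genes COL1A1, COL11A1, LOX, LOXL2, IDH1 and PHYH, lost the call in 3 to 6 of the 6 fits that left out 1 array.

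Hypoxia-induced genes, a list that shares its known regulator with P4HA1 and PLOD2, had a median difference of 0.01. Of 21 measured, 0 were higher and 1 was lower, DDIT4, an inhibitor of the growth kinase mTOR, at -0.23 (adjusted p = 0.0212 from limma), with 4 higher and 3 lower at an unadjusted p under 0.05 and groups that did not overlap in 8 higher and 5 lower (14.1% and 10.3% of all genes). DDIT4 lost the call in each of the 6 fits that left out 1 array (adjusted p = 0.0657 to 0.107 from limma) and with the replicate block (0.0945). TGF-beta-induced genes had 0 of 14 past the threshold (4 higher and 4 lower at an unadjusted p under 0.05) and a median of -0.01.

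**Figure D4:**
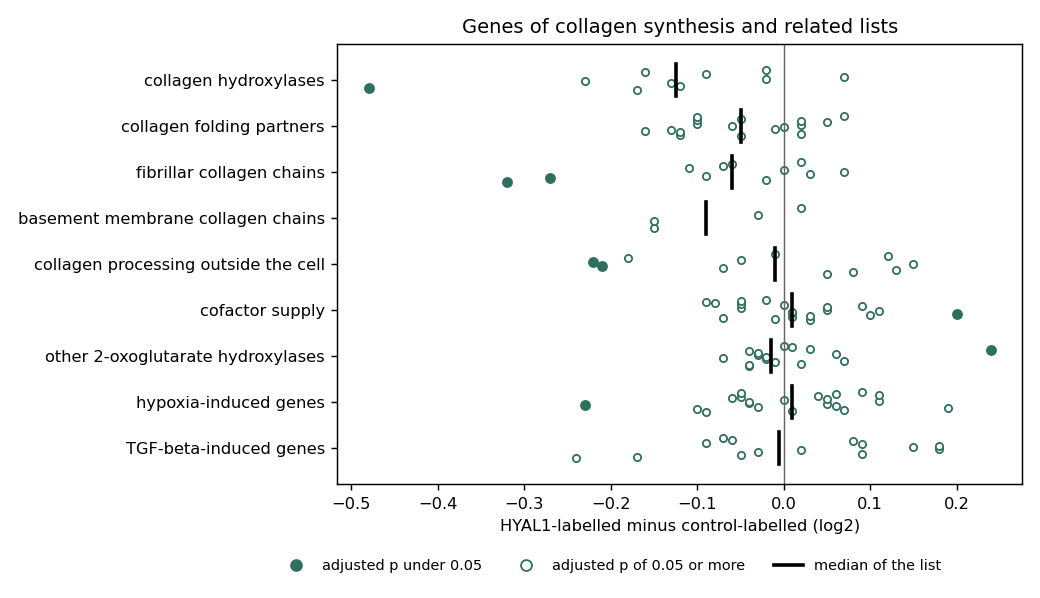
Each point is the difference in log2 value, HYAL1-labelled minus control-labelled, of 1 gene of the named list; filled points have an adjusted p under 0.05 and thick lines are list medians. The hydroxylases have the median farthest below 0 of these 9 lists (-0.13), and the hypoxia-induced and cofactor lists lie around 0 (0.01 each). The medians of the fibrillar (-0.06) and basement membrane (-0.09) collagen lists include chains below the background medians, so the ranking against these lists is uncertain. Fibrillar chains above those medians, from COL11A1 (-0.32) to COL5A2 (-0.06), all lie below 0, and COL4A1 and COL4A2 lie at -0.15 each.

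Markers of smooth muscle and pericytes had differences on both sides of 0. Of 9 measured, 3 were lower in the HYAL1-labelled arrays, RGS5 (-0.41), CNN1 (-0.37) and LMOD1 (-0.27; adjusted p = 0.0124, 0.0276 and 0.0322 in that order from limma), named after their values were seen, beside 1.21% of all genes. Without 1 array RGS5 was called in 2 of 6 fits, CNN1 in 1 and LMOD1 in 1, and LMOD1 was -0.15 with probe sets averaged (adjusted p = 0.0533). Values on the other side were 0.19 for MYH11 (adjusted p = 0.124), which lay below the background medians on all 6 arrays, and 0.14 for CSPG4 (adjusted p = 0.153), both with groups that did not overlap. The summed log2 level of the list was 67.64 to 67.80 in the HYAL1-labelled and 68.17 to 68.93 in the control-labelled arrays, and that of the 14 fibroblast markers 158.78 to 159.02 and 159.53 to 160.02. The part of these shifts in the hydroxylase values was not tested. COL1A1, COL3A1 and COL1A2 are in both the fibroblast and the fibrillar collagen list, so the fibroblast sum is not separate from the collagen result. Epithelial, endothelial and leukocyte markers had 0 genes past the threshold, with overlapping summed levels.

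The genes whose 6 values, each centred on its mean, lay nearest to those of P3H2 were GSG1, GPRC5A, SYNPO2, PDXDC1 and GALNT15, at root mean square distances of 0.0218, 0.0339, 0.0424, 0.0429 and 0.0479 on the log2 scale over the 6 arrays. All 5 were lower in the HYAL1-labelled arrays, GPRC5A with a difference of -0.49 and SYNPO2 of -0.53. PDXDC1 lay below the background medians on all 6 arrays, and GSG1 and GALNT15 did so where HYAL1-labelled. No size is given for these 3, and their distances are uncertain. The nearest hydroxylase, P3H1, lay at 0.158 and the farthest, P4HA3, at 0.284. This likeness is a description over arrays of 2 groups and rests mainly on the difference between them.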

How the data were processed

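The deposited table holds log2 values that the authors made with RMA (background correction, quantile normalization between arrays and summary over each probe set); both RMA and Affymetrix Power Tools come from the submitters' processing notes. Their versions were not given in the sources used here. RMA compresses small differences near background, and its scale is log2 intensity, so levels of different probe sets were not compared. Probe sets with 1 gene symbol (36097) were kept, those with several (1397) or none (1847) were left out, and the highest-mean set stood for a gene. The HYAL1 probe set is unnamed in the annotation used here and was found by its listed values in the study's supplement (tolerance 0.001). Groups follow the sample labels. Genes, and separately all probe sets, were compared with limma 3.58.1 in R 4.3.3 (lmFit, eBayes, 1 prior variance, prior degrees of freedom 3.25, HYAL1-labelled minus control-labelled) with Benjamini-Hochberg adjustment over the whole table and a threshold of 0.05. Ratios within arrays were compared by an exact permutation test. Alternatives were averaging a gene's probe sets or taking the one of lowest p, dropping the 30% of genes with the lowest means, centring arrays on their medians or repeating quantile normalization, weighting arrays, a prior variance with a trend, an unmoderated test, each array left out and the replicate block. The members and lists were chosen with earlier results of these data known. Named genes are the 10 members, list genes past the threshold, the partners and ratio genes, the 5 nearest patterns to P3H2 and HYAL1. COL1A2 and COL4A2 were added after their values were seen. Tested on simulated data with the spread of these arrays (15277 genes), the fit recovered 50.7% of 67 genes changed 1.2-fold and 92.5% of 67 changed 1.5-fold. The number of arrays limits precision. Figures were made with Python 3.11.15 and matplotlib 3.10.9.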

Additional observations from a re-analysis of the deposited data

How the results depend on the processing

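Over 16 alternative fits, 9 of the 10 hydroxylase genes kept the sign of their difference in every fit, and PLOD3 turned to 0.01 with probe sets averaged, 0.04 by the set of lowest p and 0.01 without control-labelled replicate 2 (-0.04 to 0.01 without 1 array). CRTAP turned to -0.01 without control-labelled replicate 2 (-0.01 to 0.03 without 1 array). Of the 160 fits of a hydroxylase gene, 134 kept sign and side of the threshold, 20 passed it anew, 3 no longer passed and 3 turned. The number of hydroxylase genes called lower, 1 as reported, was 2 with probe sets averaged, renewed quantile normalization, median centring and array weights, 4 by the set of lowest p and without the lowest 30% of mean levels, 6 with either trend in the prior variance, and 0 with the unmoderated test and the replicate block. The set of lowest p was picked by its p in these same data, which favours calls, so that fit is no independent check. Without 1 array the number was 0 to 1, and 0 without control-labelled replicate 3. Probe sets of these genes called lower, 2 as reported, were 6 without the lowest 30%, 4 after renewed quantile normalization, 14 with the trend, 15 with the robust trend, 0 with the unmoderated test and the block, and 0 to 1 without 1 array. Over all genes, 185 were called lower and 68 higher as reported. These counts were 234 and 126 with probe sets averaged, 454 and 275 by the set of lowest p, 401 and 272 without the lowest 30%, 249 and 108 after renewed quantile normalization, 214 and 59 after median centring, 595 and 429 with the trend, 616 and 463 with the robust trend, 272 and 134 with array weights, 62 and 28 with the unmoderated test, 13 to 46 and 1 to 6 without 1 array. In the pathway lists, 5 were lower and 2 higher as reported, against 15 lower by the set of lowest p, 12 and 6 without the lowest 30%, 8 lower after renewed quantile normalization and with array weights, 20 and 8 with either trend, 0 higher after median centring and with the unmoderated test, and 0 to 2 lower and 0 higher without 1 array. Fewer genes are tested without the lowest 30% (10694), and the cause of the changed counts was not tested for any setting. With the replicate block 1 gene of all, HYAL1, was called lower and 0 higher, and 0 in the pathway lists. The replicate numbers are shared by the groups in the labels, but deviations of same-numbered arrays correlated at 0.06, -0.02 and 0.24 over genes, and HYAL1-labelled replicate 1 correlated best with control-labelled replicate 2 (0.16), so the arrays may share no more than a number. HYAL1 passed in all 16 fits.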
